A study of Homo sapiens with 16 samples.

Results

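The 11p15.5 gene block is a run of neighbouring genes near the tip of the short arm of human chromosome 11. Its 35 members were chosen by name because they lie next to each other and because, as a group, their RNA was higher in PANC1 than in MiaPaCa2 cells. They were found among the 63677 gene identifiers of the deposited count table by joining gene symbols to Ensembl identifiers. In the GENCODE v44 annotation lifted to GRCh37 they run from BET1L to MRPL23, at chr11:167784-2005752, over 1.84 Mb. The difference between the lines is therefore how the block was picked, and it is given below as a description without a test. The drug responses were not part of the rule and were tested. Their control libraries also enter the difference between the lines, so these tests are not independent of the choice.

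Both cell lines are established human lines, grown from pancreatic ductal carcinomas, and were cultured in the same serum-containing medium. Each line was sequenced as a control, after 40 nM gemcitabine, after 50 µM genistein and after both drugs together, all for 24 hours, with 2 biological replicates per group and 16 libraries in all. Gemcitabine is a nucleoside analogue that blocks DNA synthesis, and genistein is a soy isoflavone with estrogen-like activity. Each line is a single model, so a difference between them is a difference between these lines and not between classes of tumour. Counted reads per library ran from 12943482 to 31991860. The epithelial keratins KRT8, KRT18 and KRT19 and the mesenchymal filament VIM were high in both lines, whereas EPCAM, CDH1 and CDH2 reached at most 2 counts in any MiaPaCa2 library and 443, 634 and 1434 in PANC1. The ductal keratin KRT7 ran from 0.17 to 1.7 FPKM (fragments per kilobase of transcript at a fixed depth) in MiaPaCa2 and from 3.95 to 21.1 in PANC1, ZEB1, a mesenchymal transcription factor, from 1.82 to 5.15 over both lines, and fibronectin, FN1, from 0.105 to 2.57. The acinar, islet and leukocyte markers and the fibroblast markers DCN and LUM never passed 2 counts, while PDGFRB, another fibroblast marker, reached 4.77 FPKM in PANC1.

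Band 11p15.5 is gene-rich and GC-rich, and it carries the proto-oncogene HRAS together with genes of unrelated function: components of the proteasome, RNA polymerase and mitochondrial ribosome, membrane tetraspanins, lipid enzymes and muscle troponins. The same band holds an imprinted domain with H19 and IGF2, in which the parental copies differ in activity, and which begins just beyond the last member.

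The promoters of the block were rich in GC. RefSeq promoters (GRCh38.p14, here cut to the 250 bases upstream of the start) matched 23 of the 35 members. Their median GC share was 74.8% against 58.0% over 35116 promoters, and their median number of CpG pairs was 31 against 11. The member set holds a single promoter per gene. The wider set holds every promoter listed and was not matched to the members by gene type or expression. The hexamer GGGCGG was found on either strand in 19 of 23 (82.6%) member promoters and in 42.6% of all promoters. CCAAT was found in 4 (17.4%) and in 32.0%, and TATAAA in 0 of 23 and in 10.7%. These are matches of letters and are no evidence of binding. The 3 sequences below belong to members whose drug responses are described further on, and show a GC-rich promoter of a gene that rose with gemcitabine in PANC1 (DUSP8), the most AT-rich of the member promoters (PNPLA2), and one of a gene that fell with gemcitabine in MiaPaCa2 (SLC25A22). Capitals mark GGGCGG or CCAAT, read on either strand, so that CCGCCC and ATTGG are the same motifs on the opposite strand.
DUSP8 (minus strand, chr11:1572272-1572521): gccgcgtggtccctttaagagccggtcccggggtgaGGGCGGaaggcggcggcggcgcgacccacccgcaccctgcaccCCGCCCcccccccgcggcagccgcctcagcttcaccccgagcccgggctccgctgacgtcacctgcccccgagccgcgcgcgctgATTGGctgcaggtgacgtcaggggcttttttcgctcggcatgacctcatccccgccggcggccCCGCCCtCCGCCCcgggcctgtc
PNPLA2 (plus strand, chr11:818664-818913): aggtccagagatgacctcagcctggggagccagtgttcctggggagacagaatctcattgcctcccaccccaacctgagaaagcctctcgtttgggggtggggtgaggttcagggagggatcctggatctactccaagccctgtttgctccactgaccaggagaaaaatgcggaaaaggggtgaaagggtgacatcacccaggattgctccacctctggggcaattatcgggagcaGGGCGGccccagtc
SLC25A22 (minus strand, chr11:798282-798531): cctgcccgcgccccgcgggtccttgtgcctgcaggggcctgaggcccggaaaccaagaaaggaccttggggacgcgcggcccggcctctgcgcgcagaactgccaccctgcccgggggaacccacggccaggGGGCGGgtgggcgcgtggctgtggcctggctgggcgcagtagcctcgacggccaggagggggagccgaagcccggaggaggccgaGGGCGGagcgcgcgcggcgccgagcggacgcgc
The DUSP8 window held 33 CpG pairs and 4 copies of GGGCGG with 1 CCAAT, the SLC25A22 window 32 and 2 copies, and the PNPLA2 window 4 and 1 copy.

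In untreated cells nearly the whole expressed part of the block stood higher in PANC1. Levels below are read counts scaled to library size after TMM normalisation (normalised CPM), and differences are log2 PANC1 minus MiaPaCa2 from a limma-voom model of all 16 libraries. Of the 31 members with enough counts for that model, 28 (90.3%) were more than 1 log2 unit higher in the PANC1 controls, against 22.3% of all 17863 genes. The median of the members was 1.79, with quartiles at 1.50 and 2.23, against 0.06 over all genes. The members cluster in size: 22 lay between 1 and 2.5, 6 above 2.5 and 3 below 1. In 26 of 31 members (83.9%) the lowest of the 8 PANC1 libraries was above the highest of the 8 MiaPaCa2 libraries, which held for 22.5% of all genes. The overlapping members were PKP3, EPS8L2, PNPLA2, AP2A2 and DUSP8. Since this difference chose the members, nothing follows from these shares. In bulk libraries a larger share of expressing cells and more RNA per cell cannot be told apart.

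**Figure D1:**
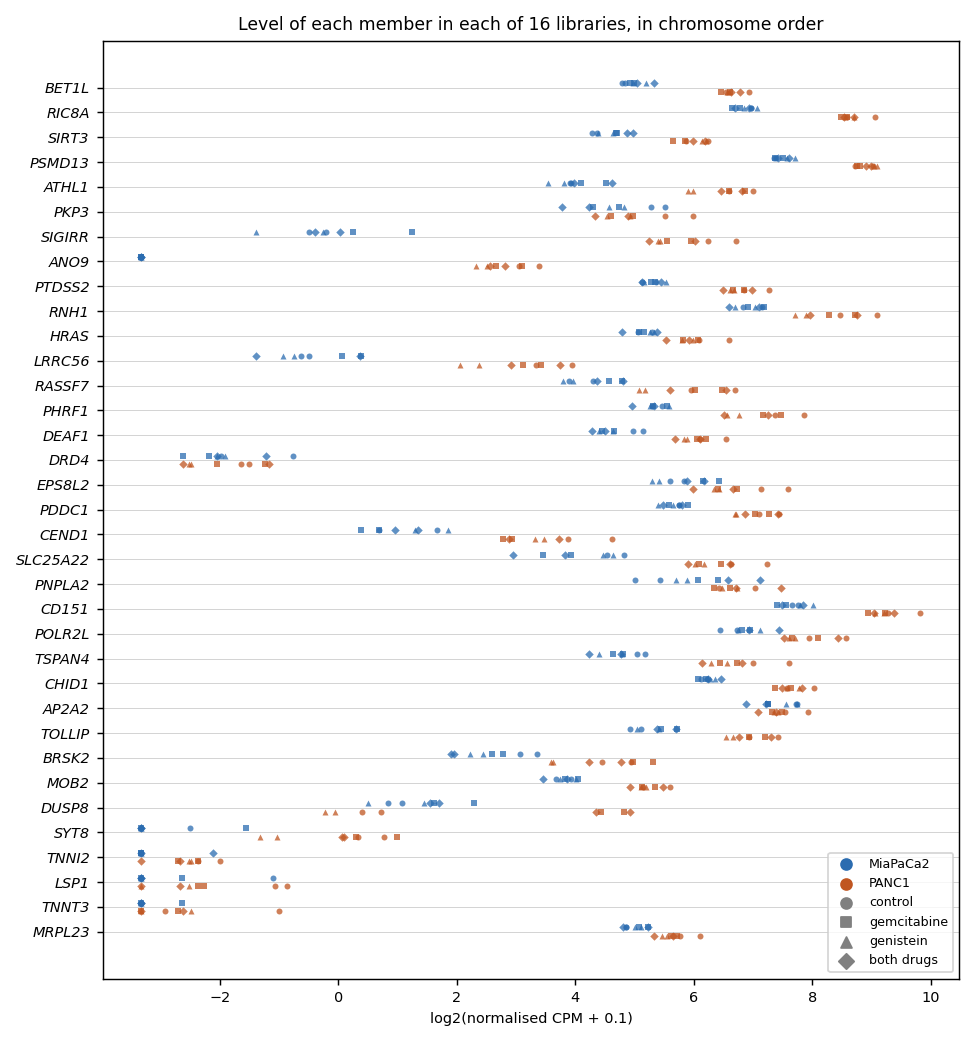
Normalised CPM of the 35 members on a log2 scale (0.1 added) in the 8 MiaPaCa2 libraries (blue) and the 8 PANC1 libraries (orange), with a different symbol for each treatment. In 26 of the 31 tested members all PANC1 points lie to the right of all MiaPaCa2 points. DRD4, TNNI2, LSP1 and TNNT3 lie at the low end of the axis in both lines, with at most 0.486 normalised CPM.

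The label of the block did not hold for every member. AP2A2, a subunit of the clathrin adaptor at the plasma membrane, had 215 and 213 normalised CPM in the MiaPaCa2 controls and 244 and 187 in the PANC1 controls, a difference of -0.01 (SE 0.14). PKP3, a plakophilin of desmosomes, had 38.6 and 45.5 against 63.5 and 45.8, a difference of 0.35 (SE 0.22). DUSP8, a phosphatase of stress-activated MAP kinases, had 2.01 and 1.68 against 1.55 and 1.22, a difference of -0.46 (SE 0.45). After correction for the GC content of the genes AP2A2, PKP3 and DUSP8 stood at -0.45, -0.74 and -1.49. The other 4 members, the dopamine receptor DRD4, the fast skeletal troponins TNNI2 and TNNT3 and the leukocyte actin-binding protein LSP1, were too low to be tested, and none passed 12 counts in a library. DRD4 had 0.486 and 0.153 normalised CPM in the MiaPaCa2 controls and 0.250 and 0.219 in the PANC1 controls, so the lines overlapped. TNNI2 had 0 counts in both MiaPaCa2 controls and 3 in each PANC1 control, and TNNT3 had 0 and 0 against 8 and 1, which allows no fold. LSP1 had 6 and 0 counts in the MiaPaCa2 controls and 9 and 12 in the PANC1 controls. Its deposited FPKM, between 1.48 and 8.77 over the 16 libraries, did not follow these counts, since libraries with 0 counts had an FPKM of up to 4.52. A second identifier of LSP1 never passed 2 counts.

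The signalling members differed widely in level. HRAS, the small GTPase of growth factor signalling, had 33.2 and 39.1 normalised CPM in the MiaPaCa2 controls and 96.1 and 68.2 in the PANC1 controls, a difference of 1.15 (SE 0.20) that was 0.16 after correction for the GC content of the genes. RASSF7, which carries a Ras-association domain, had 14.8 and 19.5 against 103.5 and 62.2, a difference of 2.22 (SE 0.33). RIC8A, a chaperone of G protein alpha subunits, had 126 and 126 against 532 and 383, a difference of 1.83 (SE 0.15). In all of these the PANC1 controls were apart from the MiaPaCa2 controls. MOB2, an adaptor of NDR kinases, differed by 1.56 (SE 0.22). BRSK2, a kinase related to AMPK, differed by 1.46 (SE 0.23), and EPS8L2, a protein of the actin cytoskeleton related to the EGF receptor substrate EPS8, by 1.63 (SE 0.21). After GC correction RASSF7 differed by 0.95, RIC8A by 1.35, MOB2 by 0.87, BRSK2 by 0.55 and EPS8L2 by 0.61.

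Apart from ATHL1, which was expressed in both lines, the largest differences came from members that were low or nearly silent in MiaPaCa2. SIGIRR, a receptor that dampens interleukin and Toll-like receptor signalling, had 10 and 10 counts in the MiaPaCa2 controls and 2095 and 2408 in the PANC1 controls, a difference of 6.95 (SE 0.63). Over all treatments its normalised CPM was never above 2.26 in MiaPaCa2 and never below 38.0 in PANC1. ANO9, a membrane protein of the anoctamin family, had 0 counts in all 8 MiaPaCa2 libraries and 208 and 261 counts in the PANC1 controls, at least 45.1-fold higher against a floor of 3 counts per library. With ANO9 at that bound the median of the members stayed at 1.79. SYT8, a synaptotagmin, had 0 and 1 counts in the MiaPaCa2 controls and 32 and 37 in the PANC1 controls, which is too few in MiaPaCa2 for a fold. LRRC56, a leucine-rich repeat protein of cilia, had 0.547 and 0.612 normalised CPM against 15.3 and 10.0, a difference of 4.31 (SE 0.57). CEND1, a membrane protein of neurons tied to cell cycle exit, had 1.52 and 3.06 against 24.4 and 14.6, a difference of 3.12 (SE 0.42). ATHL1, a glycosidase, had 15.2 and 14.9 against 128 and 96.9, a difference of 2.87 (SE 0.23). The other innate immune member, TOLLIP, an adaptor that interacts with Toll-like receptors, was well expressed in both lines, with 30.4 and 34.5 against 172 and 122, a difference of 2.15 (SE 0.23).

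Members of the cell's common machinery were present in both lines. PSMD13, of the proteasome's regulatory particle, had 168 and 164 normalised CPM in the MiaPaCa2 controls and 522 and 424 in the PANC1 controls, a difference of 1.49 (SE 0.11). POLR2L, a small subunit shared by the RNA polymerases, differed by 1.65 (SE 0.29), but 22.8% of its exon length lies opposite exons of CD151, and the strand setting of the counting is not given in the sources used here. RNH1, the inhibitor of ribonucleases, differed by 1.79 (SE 0.28), PHRF1, a ubiquitin ligase, by 2.23 (SE 0.24), and DEAF1, a transcription factor, by 1.25 (SE 0.17). Among the mitochondrial members, the deacetylase SIRT3 differed by 1.72 (SE 0.15), the glutamate carrier SLC25A22 by 2.24 (SE 0.28) and the ribosomal protein MRPL23 by 1.07 (SE 0.16), which was 0.28 after GC correction. The Golgi SNARE BET1L differed by 1.91 (SE 0.15), though 22.6% of its exon length is shared with other genes on its own strand.

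The tetraspanins and lipid enzymes followed the same pattern. CD151, a tetraspanin that binds laminin-binding integrins, had 201 and 215 normalised CPM in the MiaPaCa2 controls and 908 and 619 in the PANC1 controls, a difference of 1.83 (SE 0.19). TSPAN4, a tetraspanin of migrasomes, had 32.8 and 36.1 against 194 and 128, a difference of 2.18 (SE 0.26). PNPLA2, the adipose triglyceride lipase, had 32.0 and 42.8 against 131 and 85.5, a difference of 1.50 (SE 0.29). After GC correction CD151, TSPAN4 and PNPLA2 differed by 1.05, 1.1 and 0.58. PTDSS2, a phosphatidylserine synthase, differed by 1.80 (SE 0.20), CHID1, with a chitinase-like domain, by 1.62 (SE 0.17), and PDDC1 by 1.50 (SE 0.19). Per length, as mean deposited FPKM of the PANC1 controls, CD151 was the most abundant member at 524, before POLR2L at 468, RIC8A at 450 and PSMD13 at 381, and TNNI2 the least at 0.108. In the MiaPaCa2 controls AP2A2 came first at 179 FPKM, before CD151 at 142, PSMD13 at 141 and POLR2L at 140.

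The difference was also present in treated cells, which are no separate check, since the block was chosen with all 16 libraries at hand. The median of the 31 members was 1.56 between the gemcitabine groups, 1.33 between the genistein groups and 1.51 between the groups with both drugs, and 24, 23 and 24 members were more than 1 log2 unit higher in PANC1, against 21.6%, 21.7% and 21.5% of all genes. Part of its size moved with the GC content of the genes. The exons of the members had a median GC share of 62.9% (47.3% to 69.6%) against 48.1% over all genes. The GC trend of each library was measured against the mean of its own line's 8 libraries, in log2 units per 10 percentage points. Within PANC1 the controls stood at 0.30 and -0.07, and within MiaPaCa2 at -0.24 and -0.15. These trends cannot be compared between the lines. After removal of each library's GC trend, here taken against the mean of all 16 libraries, the median difference was 1.10. Of 31 members 28 were then above 0 and 18 above 1. Without the PANC1 control replicate 2 the uncorrected median was 2.06. Members on the plus strand (16, median 1.82) and on the minus strand (15, median 1.72) had similar values. Across members, which share libraries and base composition, the difference had a Spearman coefficient of -0.258 with position and 0.262 with exon GC share (n = 31).

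The block had no sharp border in these data. The members just inside it are BET1L, with a difference of 1.91, and MRPL23, with 1.07. Beyond BET1L towards the telomere lie 7 identifiers, none above 2 counts, and beyond MRPL23 the next tested gene was the imprinted noncoding RNA H19, with 4.49 (SE 0.25). Between the first and the last member lie 73 other identifiers with a position, of which 24 were tested. Their median difference was 1.36 (0.84 after GC correction), and 13 were above 1. The interferon-induced gene IFITM1 has near-identical relatives, and multiply aligned reads were removed before counting. It was lower in PANC1 by -1.74 (SE 0.16), and TALDO1, an enzyme of the pentose phosphate pathway, differed by 0.16 (SE 0.10). Members lie on both sides of each. The interferon regulator IRF7 had a mean of 0 normalised CPM in the MiaPaCa2 controls and 19.5 in the PANC1 controls, and EFCAB4A had 0 and 80.4, so like SIGIRR and ANO9 they were nearly silent in one line. Within 1 Mb beyond MRPL23, 12 genes were tested, with a median of 1.92, of which 9 were above 1, among them CD81 at 1.93, whereas KCNQ1 stood at -1.63.

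**Figure D2:**
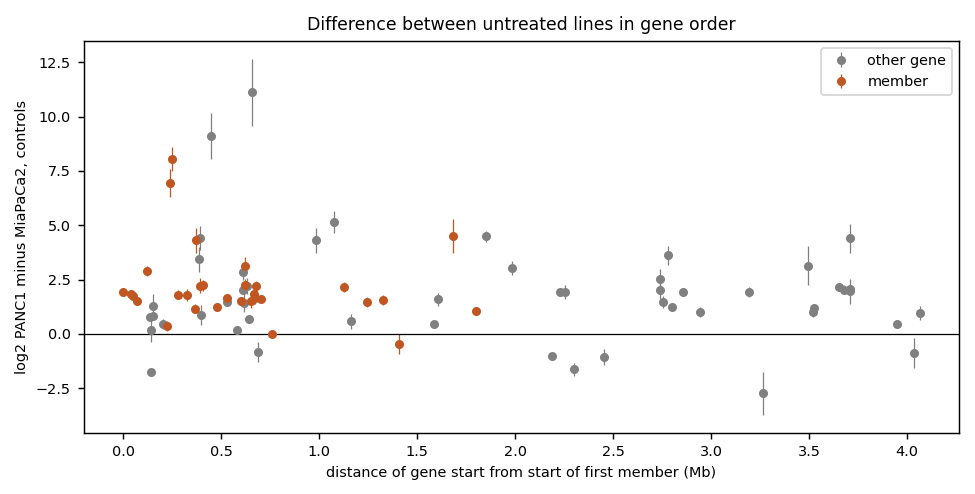
Log2 difference between the untreated lines (vertical axis, bars show 1 standard error) against the distance of each gene's start from the start of BET1L in Mb, for members (orange) and other tested genes (grey). The heights of ANO9, IRF7, EFCAB4A, MUC5AC and MUC5B are fitted against 0 counts in the MiaPaCa2 controls and have no fixed size. Members span 1.84 Mb, 28 of 31 lie above 1, and the grey points beyond the last member include values above 1 as well as below 0.

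Seen along the whole chromosome, the elevation of the members continued past the block. In steps of 1 Mb the median difference was 1.68 (44 genes) in the first step, 1.56 in the second, 1.92 in the third and 1.94 in the fourth. All 139 tested genes of the first 10 Mb had a median of 1.50, with 69.1% above 1, and the 10 steps ran from 0.86 to 3.72. From 10 to 20 Mb the median fell to 0.17, with 23.8% above 1, and from 20 to 50 Mb it was 0.37. Beyond 50 Mb, which takes in the centromere and the long arm, it was 0.90 over 631 genes. All 944 tested genes of chromosome 11 had a median of 0.90, with 45.4% above 1, against 22.3% of genes overall. After GC correction the medians of the 4 regions were 1.03, 0.02, 0.11 and 0.53, in the same order.

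Gemcitabine changed members of the block in MiaPaCa2 in both directions. A gene was called when limma-voom gave it an adjusted p of at most 0.05 (Benjamini-Hochberg over all genes tested), when it changed by 0.4 or more on the log2 scale in either direction, and when its treated libraries averaged over 1 FPKM. Of 29 members tested, 11 (37.9%) were called, 5 higher and 6 lower, where 29.5% of all genes were called, 14.9% higher and 14.6% lower. The median fold change was 0.01 for members and -0.01 for all genes. Among the 7 signalling members 3 rose (RASSF7, EPS8L2 and DUSP8) and 1 fell (BRSK2), and of the 3 tetraspanin and cell contact members 2 fell (PKP3 and TSPAN4). After GC correction 12 were called, 1 higher and 11 lower, where 28.5% of all genes were called, 12.4% higher and 16.1% lower, and the median was -0.36 for members and -0.07 for all genes. The MiaPaCa2 gemcitabine libraries followed GC content by 0.15 and 0.06 log2 units per 10 percentage points, against -0.24 and -0.15 in the controls, and the balance of higher and lower calls changed when these trends were removed. Without the gemcitabine replicate 1, or without the control replicate 1, 6 members were called, where 19.3% and 17.3% of all genes were.

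PNPLA2, which releases fatty acids from stored triglycerides, had the largest rise among the called members in MiaPaCa2. Its normalised CPM was 32.0 and 42.8 in the MiaPaCa2 controls, 85.0 and 67.6 with gemcitabine, 59.1 and 51.7 with genistein and 95.6 and 138 with both drugs. The gemcitabine libraries lay above both controls, and those with both drugs above all others. The log2 fold change was 0.99 (SE 0.18, limma-voom adjusted p = 0.00125) with gemcitabine and 1.59 (SE 0.18, adjusted p = 1.6e-05) with both drugs. After GC correction it was 0.47 and 1.07, and both stayed called. Adding genistein to gemcitabine raised it by a further 0.60 (SE 0.16, adjusted p = 0.0459), a call that was lost without the replicate 2 of both drugs, either gemcitabine replicate or either control. In PANC1 it had 131 and 85.5 in the controls and 98.1 and 80.8 with gemcitabine, which overlapped, and was not called (fold change -0.18, SE 0.26).

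PKP3 and SLC25A22 fell most with gemcitabine in MiaPaCa2. PKP3 had 38.6 and 45.5 normalised CPM in the controls, 26.6 and 19.5 with gemcitabine, 28.1 and 23.7 with genistein and 13.5 and 18.7 with both drugs. Every treated library was below both controls, and the fold change was -0.92 (SE 0.16, limma-voom adjusted p = 0.000947) with gemcitabine, -0.72 (SE 0.16, adjusted p = 0.0156) with genistein and -1.44 (SE 0.18, adjusted p = 2.9e-05) with both. SLC25A22 had 23.2 and 28.2 in the controls, 15.0 and 10.8 with gemcitabine, 24.7 and 22.1 with genistein and 7.59 and 14.0 with both drugs. Its fold change was -1.04 (SE 0.22, adjusted p = 0.0025) with gemcitabine and -1.34 (SE 0.23, adjusted p = 0.000357) with both, while the genistein libraries overlapped the controls. BRSK2 had 8.32 and 10.2 in the controls, 6.76 and 5.91 with gemcitabine, 5.34 and 4.58 with genistein and 3.76 and 3.62 with both. It was called lower in all 4 comparisons of this line, by -0.58 (SE 0.17, adjusted p = 0.0182) with gemcitabine, -0.92 (SE 0.18, adjusted p = 0.00898) with genistein and -1.36 (SE 0.20, adjusted p = 0.000111) with both. GC correction kept PKP3, SLC25A22 and BRSK2 called in each of these. Exons on the opposite strand cover 9.84% of SLC25A22, 10.5% of PNPLA2 and 6.33% of EPS8L2.

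**Figure D3:**
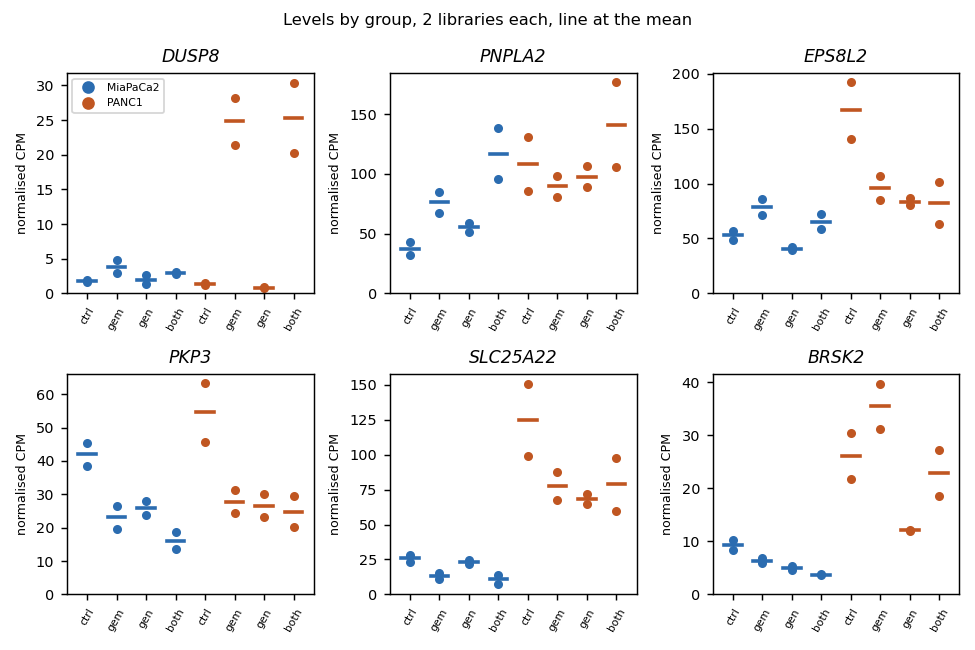
Normalised CPM (vertical axes from 0) of DUSP8, PNPLA2, EPS8L2, PKP3, SLC25A22 and BRSK2 in the 8 groups, with 2 libraries each as points and their mean as a line, MiaPaCa2 in blue and PANC1 in orange (ctrl, control; gem, gemcitabine; gen, genistein). DUSP8 reaches 21.4 and 28.2 with gemcitabine in PANC1 against 1.55 and 1.22 in its controls, while PNPLA2 rises in MiaPaCa2.

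Further members were called in MiaPaCa2. With gemcitabine, DEAF1 changed by -0.57, AP2A2 by -0.54 and TSPAN4 by -0.44, and these stayed called after GC correction. TOLLIP changed by 0.51, RASSF7 by 0.55, EPS8L2 by 0.53 and DUSP8 by 0.96, and these 4 lost their calls after it, with RASSF7 at -0.15 and EPS8L2 at -0.05. With genistein alone 4 of 29 members (13.8%) were called, where 8.3% of all genes were and 4.13% were called lower, and all 4 fell: BRSK2, PKP3, DEAF1 by -0.57 and TSPAN4 by -0.55. No member was called when the genistein replicate 2 or the control replicate 2 was left out, where 6.75% and 1.56% of all genes were, and 1 was when the control replicate 1 was left out, where 1.07% were. After GC correction 5 were called, where 11.2% of all genes were, 4 lower and PNPLA2 higher by 0.60. When genistein was added to gemcitabine, 2 of 29 (6.9%) were called, PNPLA2 higher and BRSK2 lower by -0.78 (SE 0.20, limma-voom adjusted p = 0.0386), where 5.88% of all genes were. PNPLA2 and BRSK2 both lost their calls without either control or either gemcitabine replicate. After GC correction 3 were called, where 9.8% of all genes were, with PKP3 lower by -0.50.

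With both drugs against control in MiaPaCa2, 11 of 29 members (37.9%) were called, 5 higher and 6 lower, where 40.5% of all genes were called, 20.3% higher and 20.2% lower. These libraries share the controls with the comparisons above. Besides those described, SIRT3 rose by 0.55, POLR2L by 0.54, TOLLIP by 0.47 and RASSF7 by 0.46, and DEAF1 fell by 0.73, AP2A2 by 0.74 and TSPAN4 by 0.65 on the log2 scale. After GC correction 15 were called, 1 higher and 14 lower, where 40.5% of all genes were called again, 17.9% higher and 22.7% lower, and the median moved from -0.01 to -0.55. The gained calls were all lower, and included HRAS at -0.69, RNH1 at -0.61, CD151 at -0.56 and RIC8A at -0.55. SIRT3, POLR2L, TOLLIP and RASSF7 lost their calls, at 0.23, 0.13, 0.11 and -0.19. Over the 4 comparisons, 13 of the 29 members were called in MiaPaCa2 at least once, against 45.4% of all genes.

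**Figure D4:**
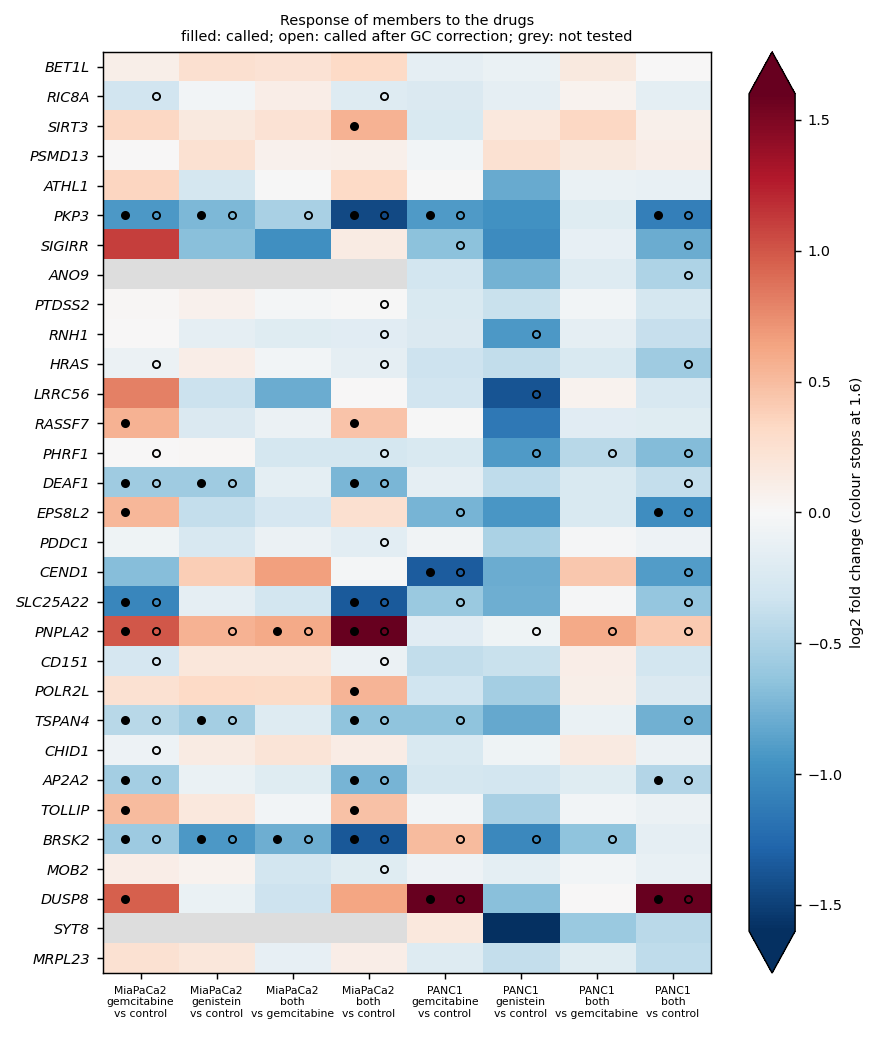
Log2 fold change (colour) of the 31 tested members in chromosome order (rows) in the 4 drug comparisons of each line (columns), with filled dots for called members, open dots for members called after GC correction and grey for members not tested in that line. MiaPaCa2 columns carry 11, 4, 2 and 11 filled dots and PANC1 columns 3, 0, 0 and 4.

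In PANC1 a single member stood out. DUSP8 had 1.55 and 1.22 normalised CPM in the controls, 28.2 and 21.4 with gemcitabine, 0.859 and 0.752 with genistein and 20.2 and 30.3 with both drugs. All 4 libraries with gemcitabine were far above all 4 without. The log2 fold change was 4.20 (SE 0.30, limma-voom adjusted p = 0.000871) with gemcitabine and 4.20 (SE 0.30, adjusted p = 0.000419) with both drugs, and 4.29 and 4.31 after GC correction. DUSP8 therefore differed between the lines by -0.46 in untreated cells and by 2.69 between the gemcitabine groups. In MiaPaCa2 it went from 2.01 and 1.68 to 4.77 and 2.95 (0.96, SE 0.34, adjusted p = 0.0388), a call that was lost after GC correction, with DESeq2, without the gemcitabine replicate 1 and without either control.

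With gemcitabine in PANC1 few members were called. Of 31 members tested 3 (9.68%) were called, 1 higher and 2 lower, where 7.52% of all genes were called, and the median was -0.24 for members and 0.03 for all genes. The called genes that fell were PKP3, from 63.5 and 45.8 to 31.3 and 24.3 (-0.91, SE 0.22, limma-voom adjusted p = 0.0464), and CEND1, from 24.4 and 14.6 to 6.74 and 7.56 (-1.33, SE 0.30, adjusted p = 0.0374). The treated libraries were below both controls for each. After GC correction 8 were called, 2 higher and 6 lower, where 18.5% of all genes were, 9.23% higher and 9.22% lower, with SIGIRR at -0.56, EPS8L2 at -0.63, SLC25A22 at -0.50, TSPAN4 at -0.55 and BRSK2 at 0.61. Without the PANC1 control replicate 2, 8 members were called, where 1919 of 17445 genes were. Without the control replicate 1, either gemcitabine replicate or either genistein replicate 1 was, where 0.367% to 4.02% of all genes were.

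Genistein alone gave no call among the members in PANC1 with limma-voom or edgeR, where 0.0591% of all genes were called, but 19 of 31 had an unadjusted p under 0.05, against 19.2% of all genes, and DESeq2 called 11, all lower, against 4.36% of all genes. The median fold change was -0.55 for members and 0.05 for all genes. BRSK2 went from 30.5 and 21.7 to 12.2 and 12.0 normalised CPM (-1.03, SE 0.24, limma-voom adjusted p = 0.119), and ATHL1 from 128 and 96.9 to 63.2 and 59.5 (-0.81, SE 0.18, adjusted p = 0.118). RNH1 went from 548 and 355 to 238 and 210 (-0.92, SE 0.29, adjusted p = 0.165). In each of these the treated libraries lay below both controls, yet the controls differed from each other by more than the treated ones did. After GC correction the median was -0.16 and 5 were called, where 7.23% of all genes were: RNH1 at -0.56, LRRC56 at -0.69, PHRF1 at -0.41 and BRSK2 at -0.41 were lower and PNPLA2 at 0.56 was higher.

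Adding genistein to gemcitabine called no member in PANC1 with limma-voom, edgeR or DESeq2, where limma-voom called 0.0177% of all genes. With limma-voom 1 of 31 members had an unadjusted p under 0.05, against 13.4% of all genes. After GC correction 3 were called, where 7.33% of all genes were: PNPLA2 at 0.60, PHRF1 at -0.47 and BRSK2 at -0.65. With both drugs against control 4 of 31 (12.9%) were called, where 17.1% of all genes were: DUSP8 higher, and PKP3 at -1.10 (SE 0.23), EPS8L2 at -0.99 (SE 0.22) and AP2A2 at -0.47 (SE 0.14) lower. After GC correction 13 were called, 2 higher and 11 lower, where 30.3% of all genes were, 13.9% higher and 16.4% lower. Without the PANC1 control replicate 2, 14 were called, where 2705 of 17445 genes were. Without the replicate 2 of both drugs 9 were, where 13.1% of all genes were, and without its replicate 1, 1 was, where 10.7% were. Over the 4 comparisons, 5 of 31 members were called in PANC1 at least once, against 18.4% of all genes.

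**Figure D5:**
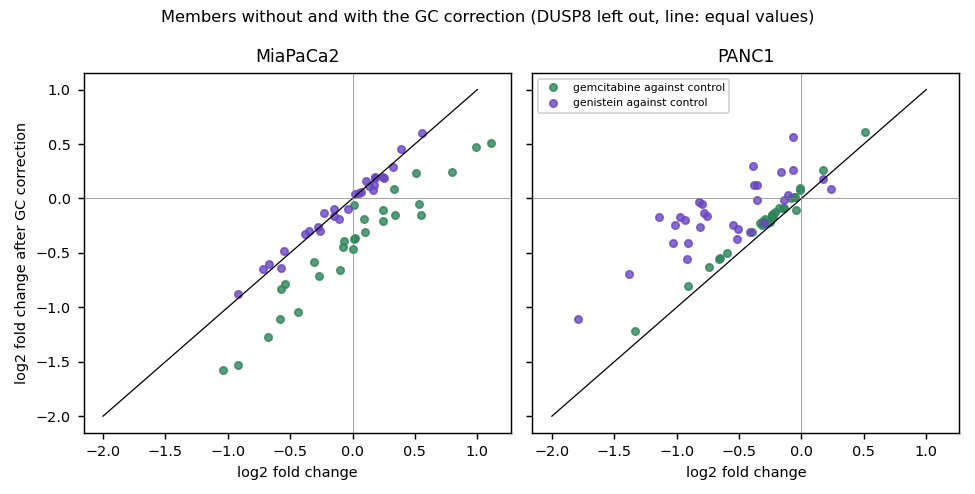
Log2 fold change of each tested member without (horizontal) and with (vertical) removal of the GC trend, for gemcitabine (green) and genistein (violet) against control, with DUSP8 left out and a line where both values are equal. The gemcitabine points of MiaPaCa2 move down, from a median of 0.01 to -0.36, and the genistein points of PANC1 move up, from -0.55 to -0.16.

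Whether the response differed between the lines was tested for each member in the model of all 16 libraries. ANO9, with 0 counts in MiaPaCa2, and SYT8, with 5 counts over its 8 libraries, passed the filter on low counts through PANC1 alone and have no MiaPaCa2 response to compare, which leaves 29 members. For gemcitabine 4 of the 31 members fitted passed (limma-voom adjusted p of at most 0.05), where 15.3% of all genes did. DUSP8 responded more in PANC1, by 3.15 (SE 0.53, limma-voom adjusted p = 0.00286). The fold changes of EPS8L2 had opposite signs, 0.53 in MiaPaCa2 and -0.74 (SE 0.21, adjusted p = 0.067, not called) in PANC1, and differed by -1.36 (SE 0.30, adjusted p = 0.0112). It went from 48.6 and 57.1 to 86.0 and 71.4 in MiaPaCa2 and from 192.7 and 140.7 to 106.6 and 84.7 in PANC1. After GC correction the signs of EPS8L2 were no longer opposite. Its fold change was -0.05 in MiaPaCa2 (not called) and -0.63 in PANC1 (called). PNPLA2 differed by -1.27 (SE 0.40, adjusted p = 0.0481) and SIRT3 by -0.67 (SE 0.21, adjusted p = 0.0476). All 4 passed after GC correction as well, at 3.86, -0.65, -0.61 and -0.33, when 14 members passed and 26.1% of all genes did. The median of the members moved from -0.34 to 0.21 with that correction. Without the PANC1 control replicate 2, 7 members passed, where 29.7% of all genes did. Without any one gemcitabine or genistein library of either line, or any one MiaPaCa2 control, 1 or 2 did, where 4.66% to 12.2% of all genes did. For genistein 0 members passed with limma-voom, edgeR or DESeq2, where 0.0336% of all genes did with limma-voom. With limma-voom 5 of the 31 members fitted had an unadjusted p under 0.05, against 11.5% of all genes. After GC correction 1 passed, PHRF1 at -0.49, where 2.58% of all genes did.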

How the data were processed

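RNA of MiaPaCa2 and PANC1 cells in 4 treatment groups each was sequenced from stranded poly-A libraries as single reads of 50 bp. The authors mapped reads to GRCh37 with TopHat2 2.0.4, removed multiply aligned reads with Picard 1.29 and counted reads per gene with HTSeq 0.6.1, and deposited the counts unscaled, as whole numbers. The deposited FPKM per gene were calculated by the authors with Cufflinks 2.1.1 and are scaled to length and depth. Neither the annotation release nor the strand setting used in counting is given in the sources used here. Isoform FPKM were not used, and for identifiers listed repeatedly in the FPKM table only the first row was kept (242 later rows dropped).

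The members and all gene lists were chosen with earlier results of these data known. All 35 members could be named, as could neighbouring genes that passed the low-count filter and the cell type markers. Groups came from the sample labels. The test was limma-voom (R 4.3.3 with limma 3.58.1) on TMM-normalised counts after filterByExpr of edgeR 4.0.16, with the 8 libraries of a line in one model and all 16 libraries for differences between lines, and p-values were adjusted over all genes tested. The filter kept 29 of the 35 members in MiaPaCa2 (not DRD4, TNNI2, LSP1, TNNT3, ANO9 or SYT8) and 31 in PANC1 and in the joint model. A member that passes a filter only through the line where it is high had to differ, so the shares of tested members describe the tested ones only. GC correction removed from each library's log2 CPM its trend with exon GC content (loess, span 0.3, degree 1), taken from GENCODE v44 lifted to GRCh37. The other alternatives were edgeR's quasi-likelihood test, DESeq2 1.42.0, its size factors, library size alone, no low-count filter, limma-trend on log2(FPKM + 1), log2(FPKM + 0.1) for the line difference, a replicate block and each replicate left out. The scripts were tested on simulated data with known changes. Within each group the replicates were further apart than counting error alone allows (chi-square per degree of freedom from 2.7 to 32). This ratio cannot show that they are independent cultures. Each counted as a separate sample because the study describes them as biological replicates. Depth was 12943482 to 31991860 counted reads, and with only 2 replicates a gene's spread is estimated largely from what limma shares across genes.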

Additional observations from a re-analysis of the deposited data

Results flagged for a closer look

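For 4 members the gemcitabine response differed between the lines by a test of the difference itself, in the limma-voom model of all 16 libraries. The response of DUSP8 was 3.15 higher in PANC1 on the log2 scale, and it passed under every alternative tried, including each library left out. The responses of EPS8L2 (-1.36), PNPLA2 (-1.27) and SIRT3 (-0.67) were lower in PANC1. EPS8L2 no longer passed with log2(FPKM + 1) and without the MiaPaCa2 gemcitabine replicate 1, the MiaPaCa2 control replicate 1 or the PANC1 gemcitabine replicate 2, with adjusted p-values of up to 0.0959. PNPLA2 and SIRT3 sat at the threshold, with adjusted p-values of 0.0481 and 0.0476, and most single libraries left out ended the call. The size of these 3 differences moved with GC correction to -0.65, -0.61 and -0.33, while that of DUSP8 moved to 3.86.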

How the results depend on the processing

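The counts of called members depended on the test, the GC correction and single libraries, and the cause was not tested. With the GC correction the PANC1 calls were 8 for gemcitabine, 5 for genistein, 3 for both drugs against gemcitabine and 13 for both against control. Of all genes 18.5%, 7.23%, 7.33% and 30.3% were called there. The difference in gemcitabine response passed for 14 members and 26.1% of all genes, and that in genistein response for 1 and 2.58%. RASSF7 and EPS8L2 turned to -0.15 and -0.05 with gemcitabine in MiaPaCa2, and RASSF7 to -0.19 with both drugs, and the fits with the block added gave -0.15, -0.05 and -0.20. DESeq2 gave 1 call for both drugs against gemcitabine in MiaPaCa2 (5.01% of all genes) and 5, 11 and 9 in PANC1 for gemcitabine, genistein and both drugs (10%, 4.36% and 17.9% of all genes). With log2(FPKM + 1) the calls in MiaPaCa2 were 6, 2 and 1 for gemcitabine, genistein and both against gemcitabine (19.8%, 1.36% and 0.561% of all genes). In PANC1 they were 1 and 1 for gemcitabine and both against control (3.54% and 15.2%). For the gemcitabine difference 2 members passed (9.14%). Library size alone and no low-count filter each gave 1 call for both against gemcitabine in MiaPaCa2 (5.55% and 2.49% of all genes). No filter gave 2 for the gemcitabine difference (6.59%).

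The labels number the replicates but do not say whether same-numbered samples were paired, and the main fits took them as unpaired. Deviations of same-numbered libraries correlated between -0.257 and 0.128 in MiaPaCa2 and between -0.508 and 0.259 in PANC1. These values show no steady pairing but do not settle the question. With the replicate block, both drugs against gemcitabine in MiaPaCa2 gave 0 calls, PANC1 gemcitabine 1 and the gemcitabine difference 2. Of all genes 3.83%, 2.61% and 12% were called there. With the block and GC correction together the PANC1 comparisons gave 8, 4, 3 and 12 (17%, 4.73%, 4.61% and 28.9% of all genes). The differences gave 14 and 1 (24.5% and 1.88%). Leaving out each replicate gave 6 to 11 calls for gemcitabine, 0 to 5 for genistein, 0 to 2 for both against gemcitabine and 8 to 13 for both against control in MiaPaCa2. In PANC1 it gave 1 to 8, 0 to 0, 0 to 0 and 1 to 14, and for the gemcitabine difference 1 to 7. The lone library left in a group is assumed to vary like the others.

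The median line difference of the members was 1.10 with GC correction, 1.33 between the genistein groups and 1.51 between the groups with both drugs. It ran from 1.52 to 2.06 with a control replicate left out. No tested alternative turned its sign, but the members were chosen for that sign. There were 2 replicates per group, and the 4 members that never passed 12 counts in a library were not tested.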
